A study of Mus musculus with 6 samples.

Results

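Invariant natural killer T (iNKT) cells from spleen were set against those from lymph node, across pathways and gene families encoded on the autosomes. The cells are all barcodes of the 2 spleen and 2 lymph node libraries with 300 to 4000 detected genes and at most 15% of their unique molecular identifiers (UMIs) from mitochondrial genes. These were 10870 of the 16532 cells that passed the same limits in the whole series, which also holds 2 liver libraries. Spleen gave 2729 and 2655 cells, and lymph node gave 2638 and 2848. All mice were labelled C57BL/6, wild type and 5 weeks old, with no treatment. In every organ, cells were first depleted of CD8+ and B220+ cells, then sorted as binding a CD1d tetramer and an anti-TCR-β antibody, to a labelled purity above 97%. The methods speak of 2 biological repeats, and the labels do not say how many mice were pooled in a library, so the p-values measure the spread between libraries. Organ is confounded with other differences between these mice. The spleen libraries held 5401 and 5858 UMIs of Xist and none of 5 Y-linked genes, whereas the lymph node libraries held no Xist and 1365 and 1582 UMIs of those Y-linked genes. The liver libraries held 10404 and 8692 UMIs of Xist and none of those Y-linked genes, as in spleen. Sex, batch, handling times and mice per library are not given in the labels. An effect of organ therefore cannot be told apart from an effect of sex or of any other difference between these mice.

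iNKT cells carry a nearly fixed T cell receptor that recognises lipids on CD1d, and they leave the thymus as effector-like cells. Several broad programmes are known in mice. iNKT1 cells use T-bet and resemble NK cells, iNKT2 cells make IL-4, and iNKT17 cells make IL-17. Lymphocytes reach lymph nodes through high endothelial venules or afferent lymph and leave them by sphingosine-1-phosphate sensing, whereas the spleen filters blood and has no afferent lymph. Immediate early genes are known to be switched on within minutes by antigen receptor signals, cytokines or stress, including the handling of cells, and their products feed back to switch them off again.

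The 4 libraries were sequenced to similar yields, 4758138 to 5427699 UMIs in the cells used, with medians of 1470 to 1730.5 UMIs and 789 to 867 genes per cell. The median mitochondrial share per cell lay between 4.07% and 5.13%. Spearman correlation across genes was 0.985 between the spleen libraries, 0.987 between the lymph node libraries and 0.947 to 0.953 between organs. Any pair of these libraries shared 7 to 20 barcodes, at most 0.753% of the smaller one. Gene values below are in CPM, the UMIs of a gene relative to the TMM-scaled total of its library, and sums over marker lists are relative to the same total without TMM scaling. Defining T cell markers were present at similar summed levels, 7445 and 6862 CPM in spleen and 7852 and 7660 CPM in lymph node for the 7 of 10 that were read. Trac, Trbc1 and Trbc2 were not analysed here. The 10 B cell markers summed to 101 and 23.5 CPM in spleen and 95.6 and 81.4 in lymph node, and the 12 myeloid markers to 227 and 221 against 286 and 369. Adgre1, S100a8 and S100a9 of the myeloid list were at 0 UMIs in all 4 libraries, while Lyz2 had 13 and 3 UMIs in spleen and 35 and 392 in lymph node. Most of the myeloid sum was Cst3, with 854 and 779 UMIs in spleen and 1001 and 870 in lymph node. Both CD8 markers together summed to 3.90 and 2.52 CPM in spleen and 2.70 and 4.41 in lymph node, with Cd8a at 0 UMIs and Cd8b1 at 9 to 16 in each library. The 7 NK cell and innate lymphoid markers summed to 10.7 and 10.3 CPM against 2.70 and 6.62, and 2 of them, Kit and Gata2, were at 0 UMIs. The 10 stromal and endothelial markers summed to 42.6 and 40.8 CPM against 53.2 and 50.8, and 7 of them were at 0 UMIs in all 4 libraries. Nearly all of this sum was Pecam1, with 163 and 146 UMIs in spleen and 197 and 183 in lymph node. No result below was tested for a part played by these cells.

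Levels of iNKT subset markers differed with the organ. The 12 iNKT1 markers summed to 4772 and 4483 CPM in spleen and 2029 and 1885 CPM in lymph node, and the 12 iNKT17 markers to 162 and 125 CPM against 1380 and 1469 CPM. The 10 iNKT2 markers lay at 1087 and 1010 CPM against 1708 and 1743 CPM, but not all of them differed. Icos had 1468 and 1457 UMIs in spleen and 3183 and 3474 in lymph node. Il4 had 615 and 562 UMIs against 583 and 585, Izumo1r 862 and 640 against 758 and 636, and Gata3 915 and 696 against 855 and 785. Cells with at least 2 UMIs of the iNKT17 markers made up 4.25% and 2.79% of the spleen libraries and 35.2% and 36.1% of those from lymph node. In these sums, more cells of a subset and more RNA per cell cannot be told apart. Each comparison, except that of cytosolic ribosomal proteins, was therefore run again in iNKT1-marker cells. These had at least 2 UMIs of the iNKT1 markers and under 2 of the iNKT17 markers (2297 and 2242 spleen cells, 1072 and 1000 lymph node cells). This gate is a cut on a scale. In spleen 225 and 223 cells had exactly 1 UMI of the iNKT1 markers and 273 and 277 had exactly 2, against 589 and 672 and then 371 and 347 in lymph node. Genes used to draw the gate are given no value within it. Markers of iNKT2 cells do not draw the gate, and some, among them Icos, Pdcd1 and Il13, were still higher in lymph node within it.

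Of 9900 autosomal genes tested with edgeR's quasi-likelihood test, 1795 (18.1%) had a Benjamini-Hochberg adjusted p below 0.05 and are said here to have risen or to be higher in an organ. Of these, 772 (7.8%) were higher in spleen and 1023 (10.3%) in lymph node. A difference of at least 2-fold was seen for 245 of the former and 492 of the latter. The median log2 fold change (log2FC, spleen over lymph node) over all tested autosomal genes was 0.0035. Within iNKT1-marker cells 783 of 9571 genes (8.18%) passed, 264 (2.76%) higher in spleen and 519 (5.42%) higher in lymph node.

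**Figure D1:**
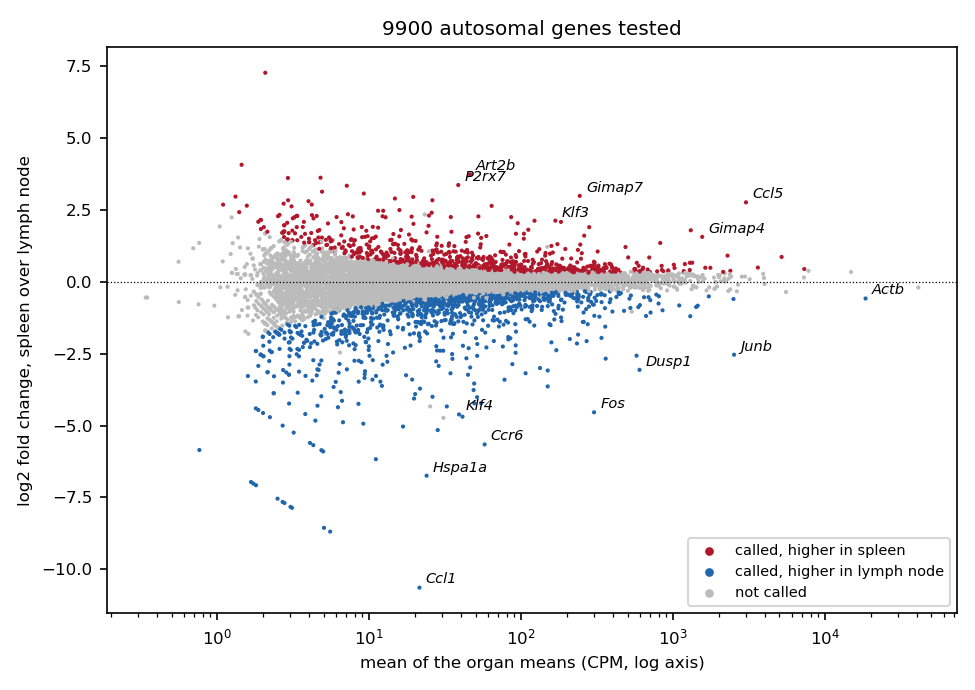
Each point is 1 of 9900 autosomal genes, with the mean of its organ means on the horizontal axis (log scale, CPM) and its log2FC of spleen over lymph node on the vertical axis, and coloured points are genes past the threshold. Genes with no UMI in an organ have a fold set by the small prior count of the fit, so their height in the plot is not a measured fold. Fos, Klf4 and Hspa1a lie far below 0 and P2rx7, Art2b and Gimap7 far above it.

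Among the 10 largest folds in favour of spleen, Art2b, an ADP-ribosyltransferase on the T cell surface, was at 79.9 and 91.3 CPM in spleen and at 6.59 and 6.12 CPM in lymph node (log2FC 3.74, SE 0.24, adjusted p = 1.93e-11). P2rx7, an ATP-gated ion channel that Art2 enzymes can activate, was at 78.8 and 61.6 CPM against 4.94 and 8.62 CPM (log2FC 3.37, SE 0.21). Next in order were Gimap7 (3.00), 1810011H11Rik (2.96), Hic1 (2.90), a transcriptional repressor, and Atp8a2 (2.84), a phospholipid flippase. They were followed by Ccl5 (2.77), Lyst (2.65), a regulator of lysosome and granule size, and Hist1h1b (2.50), a linker histone of dividing cells.

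Of the genes with the widest gap toward lymph node, the chemokine Ccl1 had no UMI in either spleen library and 310 over the lymph node pair. At a floor of 3 UMIs over both spleen libraries, this is at least 103-fold higher in lymph node. Ccr8, which encodes the receptor for that chemokine, had 158 UMIs against 2, a depth-scaled ratio of 79.1 (95% counting interval 21.5 to 659). Cdkn1a, the cell cycle inhibitor p21, was at 60.1 and 49.8 CPM in lymph node and at 2.63 and 0.291 CPM in spleen (log2FC -5.16). Fos, Fosb, Klf4, Hspa1a and Hspa1b were also in this group of 10 and are described with their families.

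Early response genes leaned to lymph node. Of 101 tested members in 7 lists, 51 were higher in lymph node and 4 in spleen, with a median log2FC of -0.50. The upstream sequence of 6 of them is shown, chosen after their values were seen as examples higher in lymph node from 4 of the lists. Each line gives the 150 bases just before the RefSeq start of transcription on GRCm38.p6, 5′ to 3′ on the gene's strand. Capitals mark TGACG or its reverse complement CGTCA, a partial copy of the cyclic AMP response element, and in Hspa1a they mark GAANNTTC, part of the heat shock element.
Fos, chr12:85473740-85473889, plus strand: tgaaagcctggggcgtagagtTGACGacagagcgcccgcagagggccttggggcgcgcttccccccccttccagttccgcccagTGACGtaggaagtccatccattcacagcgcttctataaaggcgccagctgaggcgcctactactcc
Fosb, chr7:19310046-19310195, minus strand: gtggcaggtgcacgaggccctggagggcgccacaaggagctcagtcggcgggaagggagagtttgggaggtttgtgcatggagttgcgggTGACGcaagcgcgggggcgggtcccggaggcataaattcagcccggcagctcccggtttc
Junb, chr8:84978749-84978898, minus strand: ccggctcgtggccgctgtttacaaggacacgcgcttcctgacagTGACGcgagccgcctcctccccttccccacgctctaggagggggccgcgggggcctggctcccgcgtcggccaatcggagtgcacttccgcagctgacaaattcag
Nr4a1, chr15:101266696-101266845, plus strand: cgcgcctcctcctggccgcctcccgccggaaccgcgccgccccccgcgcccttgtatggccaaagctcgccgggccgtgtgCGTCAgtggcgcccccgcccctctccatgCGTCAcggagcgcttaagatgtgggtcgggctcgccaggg
Dusp1, chr17:26508473-26508622, minus strand: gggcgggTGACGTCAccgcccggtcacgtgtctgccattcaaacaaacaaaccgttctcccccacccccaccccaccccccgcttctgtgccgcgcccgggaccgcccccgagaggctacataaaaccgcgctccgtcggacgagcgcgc
Hspa1a, chr17:34972157-34972306, minus strand: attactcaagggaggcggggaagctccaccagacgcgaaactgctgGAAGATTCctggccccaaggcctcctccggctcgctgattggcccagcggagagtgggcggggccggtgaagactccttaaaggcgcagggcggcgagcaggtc

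Within these windows Fos and Nr4a1 each held 2 matches to TGACG, Fosb and Junb each held 1, and in Dusp1 both half-sites overlap in TGACGTCA, the whole element. The letters were searched on both strands in the 250 bases before the start. TGACG was found upstream of 22 of 43 early response genes that were higher in lymph node and had a promoter entry (51.2%), and of 41 of 86 tested members with an entry (47.7%). The same letters stood upstream of 32.8% of all tested autosomal genes with an entry and of 19.8% of all genes. TGACGTCA, which contains TGACG on both strands, was upstream of 5 of those 43 (11.6%) and of 3.41% of tested autosomal genes. GAANNTTC was upstream of 7 of 19 tested heat shock and chaperone genes (36.8%) and of 6.08% of tested autosomal genes. Neither motif kept to 1 group. GAANNTTC was also upstream of 9 of the 43 early response genes (20.9%), and TGACG of 11 of the 19 heat shock and chaperone genes (57.9%). A match describes letters and is not evidence of a bound factor.

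AP-1 subunits, the Fos and Jun family factors that pair to bind DNA, were higher in lymph node in 9 of 11 tested members and in spleen in none (median log2FC -2.51). Fos (chr12:85473890-85477273) was at 567 and 588 CPM in lymph node and at 26.5 and 23 CPM in spleen (log2FC -4.54, SE 0.15, adjusted p = 1.15e-21). Liver lay at 12.4 and 8.34 CPM, so that the lymph node libraries stood apart from the other 4. Those 4 also held Xist and no UMI of the Y-linked genes, so organ and sex cannot be told apart here either. Junb, the most abundant member, was at 4149 and 4422 CPM against 820 and 660 CPM in spleen (log2FC -2.53, SE 0.13). Jun was at 333 and 406 CPM against 120 and 87.2, and Jund at 1663 and 1937 CPM against 820 and 754. Fosb (log2FC -4.69), Fosl2 (-2.51) and Maff (-3.40) moved the same way. Atf3, a stress-induced repressor, had 80 UMIs in lymph node and none in spleen, at least 26.7-fold higher. In iNKT1-marker cells 9 of 11 were again higher in lymph node, with Fos at a log2FC of -3.91 (adjusted p = 6.85e-21).

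Egr and Nr4a genes, which report recent antigen receptor signalling in T cells, were higher in lymph node in 6 of 7 tested members (median log2FC -1.52). Nr4a1 (Nur77) was at 96.9 and 84.0 CPM in lymph node and 5.52 and 7.85 CPM in spleen (log2FC -3.76, SE 0.27, adjusted p = 1.64e-08). Nr4a2 had a log2FC of -3.84, and Nab2, a corepressor of Egr proteins, one of -1.13. That of Nr4a3 was -1.52, with an adjusted p of 0.0539 without lymph node replicate 1. Egr1 itself differed less, at 42.8 and 39.5 CPM against 24.2 and 22.7 CPM (log2FC -0.81, adjusted p = 0.00138). Among the DUSP phosphatases and Sprouty genes, which damp MAP kinase signals, 7 of 12 were higher in lymph node and 1, Dusp6, in spleen. Dusp1 rose furthest in absolute level, to 1012 and 1132 CPM against 142 and 115 CPM (log2FC -3.06, SE 0.14). Dusp4 had 73 UMIs in lymph node and 0 in spleen, at least 24.3-fold higher. Dusp6 was at 65.9 and 69.2 CPM in spleen and 38.2 and 35.9 in lymph node (log2FC 0.87), and at a log2FC of 0.46 (adjusted p = 0.0904) in iNKT1-marker cells.

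Growth arrest and stress genes of the Ier and Gadd45 families were higher in lymph node in 9 of 15 members. Gadd45b, which activates p38 kinase upstream of cytokine genes, was at 161 and 123 CPM against 14.2 and 12.5 CPM in spleen (log2FC -3.40). Ppp1r15a, the phosphatase subunit that ends the integrated stress response, had a log2FC of -2.67, with 122 and 72.1 CPM in spleen and 608 and 634 in lymph node. Sesn1, an antioxidant sestrin, went the other way (0.85). Genes that hasten mRNA decay, of the Zfp36, Btg and Tob families, were higher in lymph node in 6 of 11 members and in spleen in none, among them Zfp36 (tristetraprolin, -1.73), Tob2 (-1.34) and Zfp36l1 (-1.18).

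Of 21 tested NF-kB genes 6 were higher in lymph node, against 10.3% of all tested genes, and 2 in spleen, near the 7.8% of all tested genes (0 in spleen without lymph node replicate 2, and 1 without either spleen replicate). The feedback inhibitors led: Tnfaip3 (A20) was at 166 and 145 CPM in lymph node and 29.9 and 26.2 in spleen (log2FC -2.47), Nfkbid had a log2FC of -1.31, Nfkbiz of -1.23 and Nfkbia of -1.07.

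Heat shock and chaperone genes differed in a subset, 8 of 24 higher in lymph node and none in spleen (median log2FC -0.12). The inducible Hsp70 gene Hspa1a had 342 UMIs in lymph node against 3 in spleen, a ratio of 114 (95% counting interval 38.7 to 556). Its near-identical neighbour Hspa1b was at 39.3 and 25.6 CPM against 1.84 and 0, and reads cannot be assigned with certainty between the pair. Here liver did not side with spleen: Hspa1a was at 31.1 and 38.4 CPM in the liver libraries. Dnajb9, an endoplasmic reticulum cochaperone (log2FC -1.47), and Dnajb1, the Hsp40 partner of Hsp70 (-1.31), rose moderately. The constitutive chaperone Hspa8 was at 2043 and 1976 CPM against 1570 and 1265 (-0.50, adjusted p = 0.174 without spleen replicate 2 and 0.0569 without lymph node replicate 1), while Hsp90aa1 lay at 439 and 422 CPM in lymph node and 397 and 441 in spleen, with overlapping libraries. In iNKT1-marker cells the members higher in lymph node were 6 of 7 Egr and Nr4a genes, 6 of 11 DUSP and Sprouty genes, 8 of 14 Ier and Gadd45 genes, 5 of 11 mRNA decay genes, 6 of 21 NF-kB genes and 6 of 24 chaperones. Xist and the Y-linked genes moved with all these values, and their part was not tested.

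**Figure D2:**
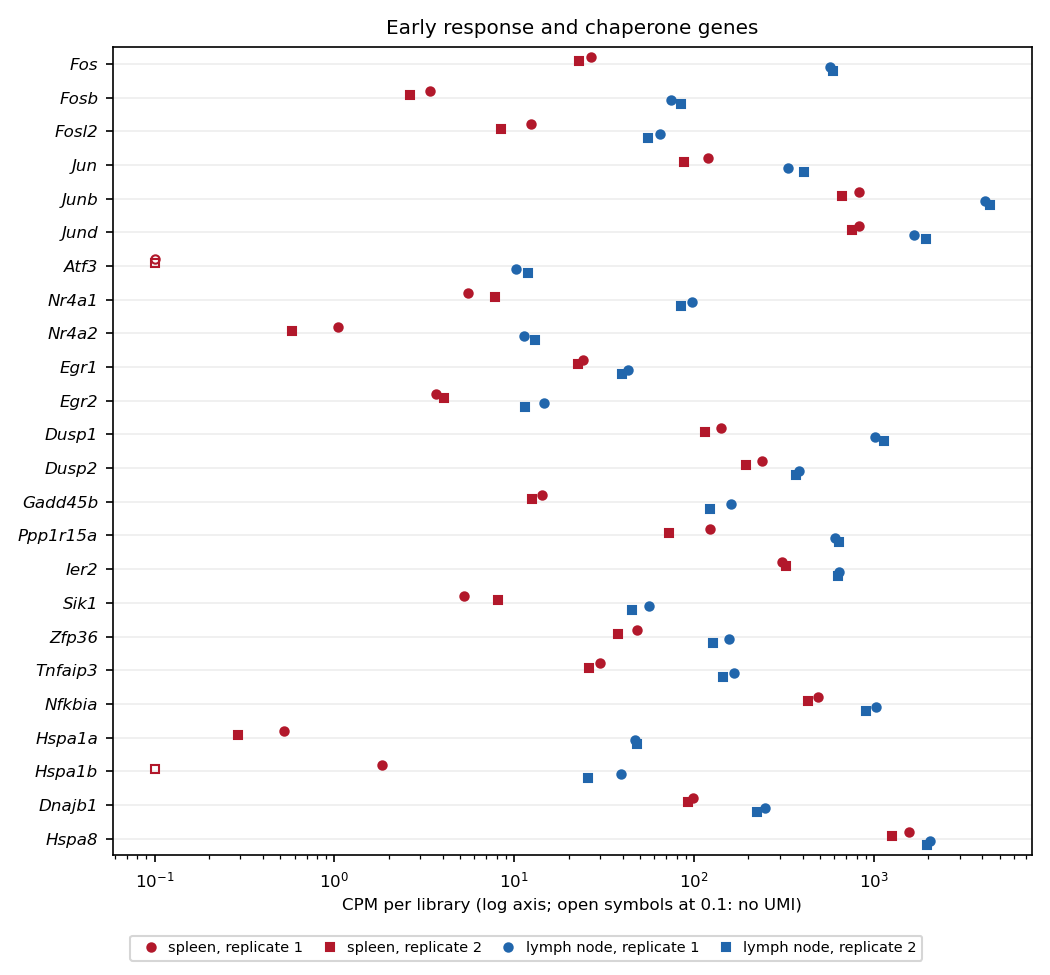
Levels of 24 early response and chaperone genes, 1 row each, in CPM on a log axis, with 1 point per spleen (red) and lymph node (blue) library, and an open symbol where a library had no UMI. The lymph node points lie to the right of the spleen points for Fos, Junb, Nr4a1, Dusp1, Gadd45b and Hspa1a.

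Genes of trafficking and survival, from the Gimap to the FoxO and quiescence lists, differed in both directions, 23 of 103 higher in spleen and 34 in lymph node. All 8 Gimap genes, which encode small GTPases known for lymphocyte survival and form 1 cluster on chromosome 6 (48647234 to 48770851), were higher in spleen, with a median log2FC of 1.26. Gimap4, the most abundant, was at 2396 and 2240 CPM in spleen and 813 and 751 CPM in lymph node (log2FC 1.57). Gimap7 was at 468 and 394 CPM against 54.1 and 54.0, and higher still in liver at 640 and 751 CPM. Gimap1 and Gimap8 had the smallest log2FC, 0.85 and 0.87. In iNKT1-marker cells 7 of 8 remained above the threshold, with the median down to 0.63.

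Krüppel-like factors, zinc finger regulators of T cell quiescence and migration, were higher in spleen in 2 of 10 members and in lymph node in 6. Klf2, which drives S1pr1 in naive T cells, was at 348 and 319 CPM in spleen and 151 and 183 in lymph node (log2FC 1.00), and Klf3 was at 283 and 263 CPM against 67.0 and 57.6 (2.13). Klf4 went strongly the other way, with 74.7 and 75.1 CPM against 3.41 and 2.62 (log2FC -4.61, SE 0.24). Klf9, Klf10 and Klf11 had log2FC of -2.46, -1.49 and -3.04. S1pr1, a known Klf2 target, and Ccr7 did not pass the test. S1pr1 was at 52.8 and 56.1 CPM in spleen and 50.2 and 50.9 in lymph node (log2FC 0.11, adjusted p = 0.689), and Ccr7 at 31.8 and 30.8 against 34.0 and 25.6.

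Over the 17 tested genes of egress and lymphoid homing, 4 were higher in each organ (2 in spleen without spleen replicate 1 or without either lymph node replicate). Gpr183, the oxysterol receptor EBI2 that positions lymphocytes at follicle borders, was at 137 and 126 CPM in lymph node and 33.6 and 32.0 in spleen (log2FC -2.00). Cd69, which holds S1PR1 inside the cell, was at 133 and 160 CPM against 81.4 and 79.3 (-0.87). Itga4, the α4 integrin chain, was higher in spleen (1.26, and 1.32 in iNKT1-marker cells).

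Of 11 chemokine receptors tested on autosomes, 6 were higher in lymph node and 2 in spleen. Ccr9, a receptor for gut homing, was at 92.7 and 80.5 CPM in spleen and 17 and 18.6 in lymph node (log2FC 2.28, SE 0.17). Ccr6 (log2FC -5.66), an iNKT17 marker, and Ccr10 (-2.06), a receptor of skin-homing cells, rose in lymph node. Cxcr6, the receptor that holds iNKT cells in liver sinusoids, was at 1994 and 2130 CPM in spleen and 1859 and 2213 in lymph node, and the libraries overlapped.

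Integrins leaned to spleen, with 6 of 11 higher there, including Itgb1 (1.02) and Itgb3 (0.84), and 1 in lymph node (3 and 1 in iNKT1-marker cells). That exception, Itgae, which encodes the CD103 chain that binds E-cadherin, was at 98.8 and 81.5 CPM in lymph node and 6.30 and 9.30 in spleen (log2FC -3.54, SE 0.21) and kept a log2FC of -3.24 in iNKT1-marker cells. S100, annexin and galectin genes were higher in lymph node in 7 of 17 members and in spleen in none. S100a4 was at 597 and 474 CPM against 137 and 140 (-1.95), Lgals3 (galectin-3) at 498 and 568 against 191 and 171 (-1.56), and Anxa5 had a log2FC of -1.55.

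In the Bcl2 family of survival regulators 4 of 15 were higher in lymph node and 1 in spleen (0 in spleen with any 1 of the 4 libraries left out), the former led by the BH3-only genes Pmaip1 (Noxa, -3.07) and Bbc3 (Puma, -1.33), and Mcl1 did not pass (-0.09). The spleen count is near the 7.8% of all tested genes higher there. In iNKT1-marker cells Bik, another of the 4 higher in lymph node, had a log2FC of 0.05. The FoxO and quiescence list had 7 of 19 higher in lymph node and 2 in spleen (4 and 1 in iNKT1-marker cells). Its spleen count fell to 1 without spleen replicate 1 or without either lymph node replicate, and its lymph node count fell to 4 without lymph node replicate 1 and to 3 without lymph node replicate 2 or spleen replicate 2. Il7r, the IL-7 receptor chain, was at 1117 and 1144 CPM against 610 and 530 in spleen (log2FC -0.99, and -0.38 in iNKT1-marker cells, where adjusted p = 0.0466).

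**Figure D3:**
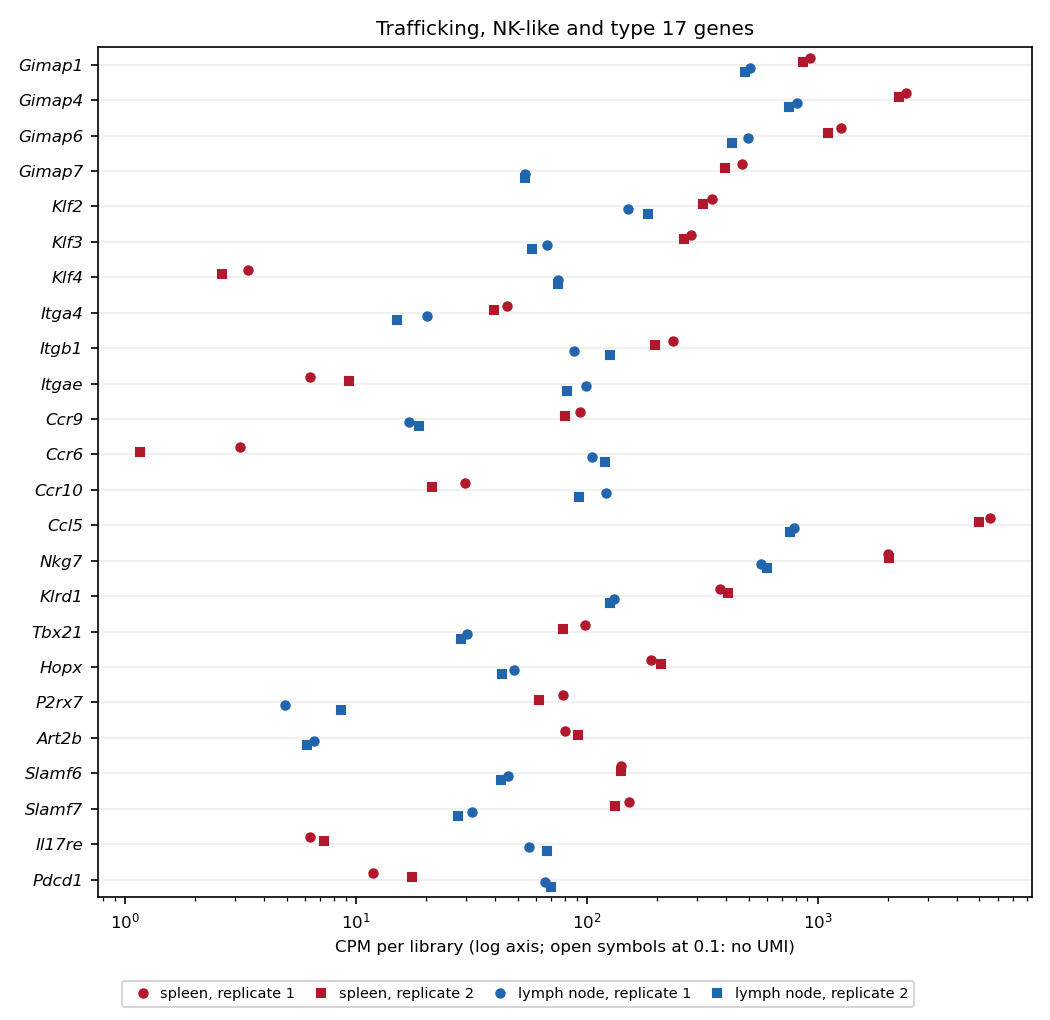
Levels of 24 genes of circulation, homing and surface signalling, 1 row each, in CPM on a log axis with 1 point per spleen (red) and lymph node (blue) library. Spleen points lie to the right of those from lymph node for Gimap7, P2rx7 and Ccr9, and lymph node points lie to the right for Klf4, Itgae and Pdcd1.

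NK-like genes leaned to spleen, with 22 of 42 tested higher there and 4 in lymph node (median log2FC 0.82), beside the iNKT1 marker sums given above. Among the C-type lectin receptors of the NKG2, NK1.1 and CD94 group, 10 of 15 were higher in spleen and 2, Klrb1a and Klrb1b, in lymph node (Klrb1b with an adjusted p of 0.0619 without lymph node replicate 2). Klrd1 (CD94) was at 375 and 407 CPM in spleen and 131 and 125 in lymph node (log2FC 1.61, SE 0.12), Klrc1 (NKG2A) at 172 and 174 against 45.8 and 52.6 (1.82), and Klre1 at 59.1 and 54.6 against 11.8 and 12.0 (2.26). Cd160, a receptor for HVEM that marks group 1 cells, had a log2FC of 1.91 and of 1.33 in iNKT1-marker cells. Of the 9 members that do not draw the gate, 4 were higher in spleen in all cells and 2 in iNKT1-marker cells.

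The Ly49 genes, MHC class I receptors that lie together on chromosome 6 and are near-identical, so that their reads may be split, were higher in spleen in 3 of 6 (5 without lymph node replicate 2, and 1 without spleen replicate 2). Klra9 shows the spread behind this. It was at 42.3 and 35.2 CPM in spleen but 2.20 and 13.1 CPM in lymph node, and did not pass the test (log2FC 2.35, adjusted p = 0.135). Klra1 was at 93.8 and 89.5 CPM against 46.1 and 79.8 (0.54, adjusted p = 0.0809). None of the 6 passed in iNKT1-marker cells, where their median log2FC was 0.53 against 1.75 in all cells. The adaptors of activating receptors had 2 of 6 higher in spleen (1 without spleen replicate 1 or lymph node replicate 1), Hcst (DAP10, 0.67) among them.

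In the granule list 7 of 15 were higher in spleen and 2 in lymph node (0 in lymph node without lymph node replicate 1). Nkg7, needed for granule exocytosis, was at 2017 and 2032 CPM against 566 and 598 (log2FC 1.80), Prf1 (perforin) at 7.62 and 6.39 against 1.1 and 1.67 (2.32) and Fasl at 75.1 and 79.0 against 34.0 and 28.1 (1.31). Granzyme B, Gzmb, was low in all 4 libraries, 11.6 and 6.10 CPM against 5.49 and 6.95, which overlap. Of the 13 granule genes that do not draw the gate, 5 were higher in spleen and 2 in lymph node in all cells. In iNKT1-marker cells 1 of these 13 passed, higher in spleen, and Fasl was at 0.50 (adjusted p = 0.0547).

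Type 17 genes were higher in lymph node in 17 of 19 members, with a median log2FC of -3.18. Pxdc1 was at 256 and 297 CPM in lymph node and 25.0 and 19.2 in spleen (-3.64), and Blk, a Src family kinase, at 98.3 and 88.4 against 5.78 and 4.07 (-4.23). Il17a had 44 UMIs against 0, at least 14.7-fold higher, Il22 had 71 against 1 (ratio 71.1, 95% counting interval 12.4 to 2847) and Il17f 31 against 1 (31.0, 5.17 to 1265). Of 7 members that do not draw the gate, 5 were higher in lymph node in all cells, with a median log2FC of -2.21. In iNKT1-marker cells 1 of the 5 still tested was, with a median of -0.12.

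Lineage transcription factors were higher in lymph node in 10 of 37 and in spleen in 6 (3 without lymph node replicate 2). Spleen was higher for Hopx, a homeodomain cofactor of effector cells (189 and 209 CPM against 48.0 and 42.8, log2FC 2.13), for Tbx21, which encodes T-bet (1.60), and for Stat4, which acts below IL-12 (1.56). Lymph node was higher for Nfil3 (-3.11), Tox (85.6 and 94.0 CPM against 32.0 and 30.2, -1.53) and Id3 (-0.98). Zbtb16, which encodes the lineage-defining factor PLZF, did not pass, with 75.7 and 75.0 CPM in spleen and 96.9 and 84.8 in lymph node (-0.27, adjusted p = 0.176). Gata3 lay at 240 and 202 CPM against 235 and 218, with overlapping libraries. In iNKT1-marker cells 2 of 33 were higher in spleen, Hopx (1.21) and Stat4 (0.87), and 4 in lymph node.

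Cytokine genes were higher in lymph node in 13 of 20 tested and in spleen in 2. Without the gate gene among them these were 12 and 2 of 19, and in iNKT1-marker cells 6 and 1 of 15. The lymph node count was 8 without lymph node replicate 1. The spleen count was 0 without lymph node replicate 2 or spleen replicate 2 and 1 without either of the others. Il13 was at 23.6 and 13.1 CPM in lymph node and 2.89 and 2.62 in spleen (log2FC -2.72), Lta (lymphotoxin α) at 43.6 and 33.9 against 15.8 and 14.2 (-1.37), and Ifng at 127 and 107 against 74.3 and 57.8 (-0.82, adjusted p = 0.0405, and 0.0703 to 0.181 without any one library but spleen replicate 1). Il4, in contrast to Il13, was at 162 and 163 CPM in spleen and 160 and 163 in lymph node. Areg, amphiregulin, had 26 UMIs in lymph node and 0 in spleen, at least 8.68-fold higher. Furin, a protease that matures TGF-β, was at 125 CPM in both lymph node libraries and 29.4 and 23 in spleen (-2.25), and lost its call in iNKT1-marker cells (-0.59, adjusted p = 0.0913).

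Chemokine ligands had 2 of 7 higher in each organ. Without Xcl1, which draws the gate, 1 of 6 was higher in spleen and 2 in lymph node. In iNKT1-marker cells 1 of 5 was higher in each. Ccl5 (RANTES) was at 5527 and 4971 CPM in spleen and 785 and 754 in lymph node (log2FC 2.77, SE 0.14, and 1.73 in iNKT1-marker cells). Xcl1, which attracts cross-presenting dendritic cells, was at 340 and 289 CPM against 215 and 144 (0.81). Under a replicate block Xcl1 was no longer called, and 1 chemokine ligand was higher in spleen. In cells under 2 iNKT17 marker UMIs the log2FC of Xcl1 was 0.20 (adjusted p = 0.564). Cxcl2, a neutrophil chemokine, had 45 UMIs in lymph node and 0 in spleen, at least 15.0-fold higher, and Ccl1 has been given.

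Cytokine receptors followed both patterns. Of 10 common γ chain family genes 3 were higher in spleen (1 without lymph node replicate 2) and 2 in lymph node. Over the 9 that do not draw the gate these were 2 and 2 in all cells, and 0 and 1 in iNKT1-marker cells. Il2rb, the IL-15 receptor β chain, was at 279 and 214 CPM against 95.3 and 103 (1.32), and Il2ra (CD25) was higher in lymph node (-1.0) but at 0.06 in iNKT1-marker cells. Of 17 receptors and transducers of IL-12, IL-18, IL-23 and interferon, 4 were higher in each organ. In iNKT1-marker cells 2 of 16 were higher in spleen and 3 in lymph node. Il12rb2 was at 31.0 and 32.0 CPM in spleen and 7.96 and 5.01 in lymph node (2.27, SE 0.23), while Il18r1 was at 422 and 490 CPM in lymph node and 200 and 194 in spleen (-1.21). Ifngr2 (-1.86) and Il6ra (-1.37) were higher in lymph node, and kept log2FC of -1.54 and -1.98 in iNKT1-marker cells. Of 8 SOCS genes 1 was called, Socs3, higher in lymph node (-0.71), near the 10.3% of all tested genes higher there. DESeq2 did not call Socs3. Its log2FC was -0.53 without lymph node replicate 2 and -0.60 without spleen replicate 2.

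Of 34 tested members of the antigen receptor complex and its proximal signalling, 8 were higher in spleen, where 7.8% of all tested genes were, and none in lymph node. The median log2FC was 0.04. The count was 4 without lymph node replicate 1 and 5 without spleen replicate 1, and in iNKT1-marker cells 2 were higher in spleen and 3 in lymph node. Those 2 were Txk, a Tec family kinase (599 and 702 CPM against 341 and 379, log2FC 0.85, and 0.97 in the gate), and Themis, a regulator of TCR signal strength (1.02). Zap70 was at 220 and 203 CPM in spleen and 268 and 242 in lymph node (-0.27, adjusted p = 0.118).

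Costimulatory and TNF family receptors had 5 of 16 higher in each organ, and in iNKT1-marker cells 1 in spleen and 2 in lymph node. Icos was at 874 and 966 CPM in lymph node and 386 and 423 in spleen (-1.19), Cd28 at 746 and 791 against 445 and 433 (-0.81), and Cd226, an adhesion receptor of NK and T cells, at 206 and 204 in spleen against 110 and 97.9 (0.98). Inhibitory receptors and genes of unresponsiveness were higher in lymph node in 6 of 13. Pdcd1 (PD-1) was at 65.9 and 70.1 CPM against 11.8 and 17.4 in spleen (log2FC -2.22, SE 0.19, and -2.60 in iNKT1-marker cells), Lag3 had a log2FC of -1.72, and Nt5e (CD73), which makes adenosine, of -1.42. The exception, Cd160, has been given. SLAM family genes, whose homotypic contacts select iNKT cells in the thymus, were higher in spleen in 3 of 9: Slamf7 at 152 and 132 CPM against 31.8 and 27.5 (2.26), Slamf6 at 141 and 140 against 45.3 and 42.5 (1.68) and Ly9 (0.69, and 0.26 in iNKT1-marker cells).

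Of 10 tested genes that make, sense or clear extracellular nucleotides, P2rx7 and Art2b included, 6 were higher in spleen and 2 in lymph node (4 and 1 without spleen replicate 1, and 1 in lymph node without either lymph node replicate). Adora2a, an adenosine receptor, was at 53.1 and 46.2 against 29.1 and 24.8 (0.88). In iNKT1-marker cells 2 of 9 were higher in spleen and 1 in lymph node, and P2rx7 and Art2b kept log2FC of 2.94 and 3.04. RGS genes, which shorten signals from chemokine receptors, were higher in lymph node in 4 of 9. In spleen 1 was higher, Rgs3 (log2FC 0.51, and -0.035 in iNKT1-marker cells). Rgs2 was at 292 and 221 CPM against 64.4 and 54.6 in spleen (-2.10), Rgs10 had a log2FC of -1.02 and Rgs1 of -0.56.

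Interferon-stimulated, MHC class I, and Ms4a and Ly6 surface genes leaned to spleen, 36 of 85 higher there and 3 in lymph node (median log2FC 0.38). Of 22 class I and antigen processing genes 12 were higher in spleen and none in lymph node (median log2FC 0.41). The count was 6 without lymph node replicate 2 and 3 in iNKT1-marker cells. H2-Q7, a Qa-2 gene, was at 465 and 394 CPM against 236 and 176 (1.06), Psmb8, an immunoproteasome subunit, at 1586 and 1569 against 1014 and 975 (0.67) and Psmb10 had a log2FC of 0.61. B2m, the shared light chain, was at 9136 and 8431 CPM against 7151 and 6310 (0.38, adjusted p = 0.054). H2 class I genes are near-identical, and their reads may be split between them.

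Among interferon-stimulated genes 18 of 52 were higher in spleen and 2 in lymph node (median 0.31). Without lymph node replicate 2 these counts were 4 and 3, without spleen replicate 1 they were 10 and 1, and without lymph node replicate 1 they were 14 and 1. In iNKT1-marker cells they were 3 and 4 of 53. Parp14 (0.83) and Ifi27l2a (1456 and 1434 CPM against 1055 and 824, 0.62, adjusted p = 0.0796 without lymph node replicate 2) were higher in spleen, whereas Oasl2 was at 37.9 and 33.6 CPM in lymph node and 9.46 and 12.2 in spleen (-1.73). Ifit3 and Isg15, both induced by interferon, did not pass. Ifit3 was at 50.4 and 79.3 CPM in spleen and 117 and 57.8 in lymph node, and Isg15 at 244 and 254 against 202 and 139 (0.54, adjusted p = 0.132). Ms4a and Ly6 surface genes had 6 of 11 higher in spleen and 1 in lymph node (3 and 1 without lymph node replicate 2, 1 and 2 in iNKT1-marker cells), for example Ms4a6b at 1190 and 1188 CPM against 837 and 862 (0.48, adjusted p = 0.0587 without lymph node replicate 1), and Ly6g5b at 103 and 93.7 in lymph node against 42.8 and 50.3 (-1.08).

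Genes that follow body-wide cues were mostly higher in lymph node, 18 of 33 against 2 in spleen. In the circadian list 9 of 16 were higher there and none in spleen, with Ciart, a repressor of the clock, at 66.7 and 55.3 CPM against 10.5 and 8.43 (log2FC -2.68, and -3.11 in iNKT1-marker cells), Per1 at 25.5 and 32.3 against 8.93 and 7.27 (-1.83), Hlf at 8.78 and 9.46 against 0.525 and 0.581 (-3.98) and Nr1d1 (Rev-erbα) at 32.4 and 25.9 against 9.46 and 12.8 (-1.39). The opposing arm gave no call: Arntl (Bmal1) was at 34.9 and 33.1 CPM in spleen and 26.9 and 25.9 in lymph node (0.37, adjusted p = 0.162). In iNKT1-marker cells 3 of 13 were higher in lymph node. The labels give no time of day. Of 18 genes known to answer glucocorticoids, 10 were higher in lymph node and 2 in spleen (1 in spleen without any one of the 4 libraries). Besides Dusp1, Per1, Klf9 and Il7r, which other lists also hold, Fkbp5, a cochaperone of the glucocorticoid receptor, was at 31.8 and 36.7 CPM against 14.2 and 20.9 (-0.97), and metallothionein Mt1 had 38 UMIs against 1 (ratio 38.1, 95% counting interval 6.43 to 1542).

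Housekeeping families differed by small amounts, mostly toward spleen, and their counts moved when a library was left out. Among all tested genes, 7.8% were higher in spleen. Nuclear genes of the respiratory chain were higher in spleen in 14 of 76 (median log2FC 0.21). The count was 0 without lymph node replicate 2 or spleen replicate 2, 7 without lymph node replicate 1 and 5 without spleen replicate 1. Mitochondrial ribosomal proteins had 10 of 77 higher in spleen (2 without lymph node replicate 2), such as Mrpl27 (97.7 and 95.3 CPM against 62.0 and 62.0, 0.64), and proteasome genes 6 of 37 (3 without either lymph node replicate). No gene of these families was higher in lymph node. Cytosolic ribosomal proteins were read from the fit that keeps them, where 1781 of 9965 autosomal genes passed (17.9%), 730 (7.33%) higher in spleen and 1051 (10.5%) in lymph node. Of 80 tested, 7 were higher in spleen and none in lymph node (median 0.24), with 43 called without lymph node replicate 1 and 1 without any other library. Their summed level was 256900 CPM in the first lymph node library and 205900 in the second, a wider gap than between the spleen libraries.

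Over all tested genes 7.8% were higher in spleen and 10.3% in lymph node, and the counts for glycolysis, actin and replication genes that follow are near or below those shares. Glycolysis genes had 2 of 25 higher in spleen (1 without spleen replicate 1 or without either lymph node replicate) and 1 in lymph node. That gene was Hk2, the inducible hexokinase, at 83.7 and 77.6 CPM against 7.88 and 9.30 (log2FC -3.23, and -2.22 in iNKT1-marker cells), while Gapdh lay at 587 and 462 CPM against 536 and 473 in spleen, with overlapping libraries. Sterol genes had 3 of 26 higher in spleen and 2 in lymph node, 0 and 0 without lymph node replicate 2, 1 and 0 without lymph node replicate 1, 2 and 1 without spleen replicate 1, and 3 and 1 without spleen replicate 2. Actin and thymosin genes had 2 of 36 higher in spleen and 3 in lymph node (0 and 2 without lymph node replicate 1, 2 and 1 without lymph node replicate 2, 0 and 1 without spleen replicate 1), with Vim (vimentin) at 170 and 143 CPM in lymph node against 89.3 and 65.1 (-1.02). Of 40 genes of DNA replication and mitosis 3 were higher in spleen, 8 without spleen replicate 1, and 1 with 2 higher in lymph node without spleen replicate 2. Mki67 was at 17.6 and 34.3 CPM in the spleen libraries against 13.2 and 10.6 (adjusted p = 0.103 without lymph node replicate 2 and 0.183 without spleen replicate 2), and the cycling markers summed to 489 and 721 CPM in spleen and 507 and 556 in lymph node. Libraries of both organs overlap in that sum.

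**Figure D4:**
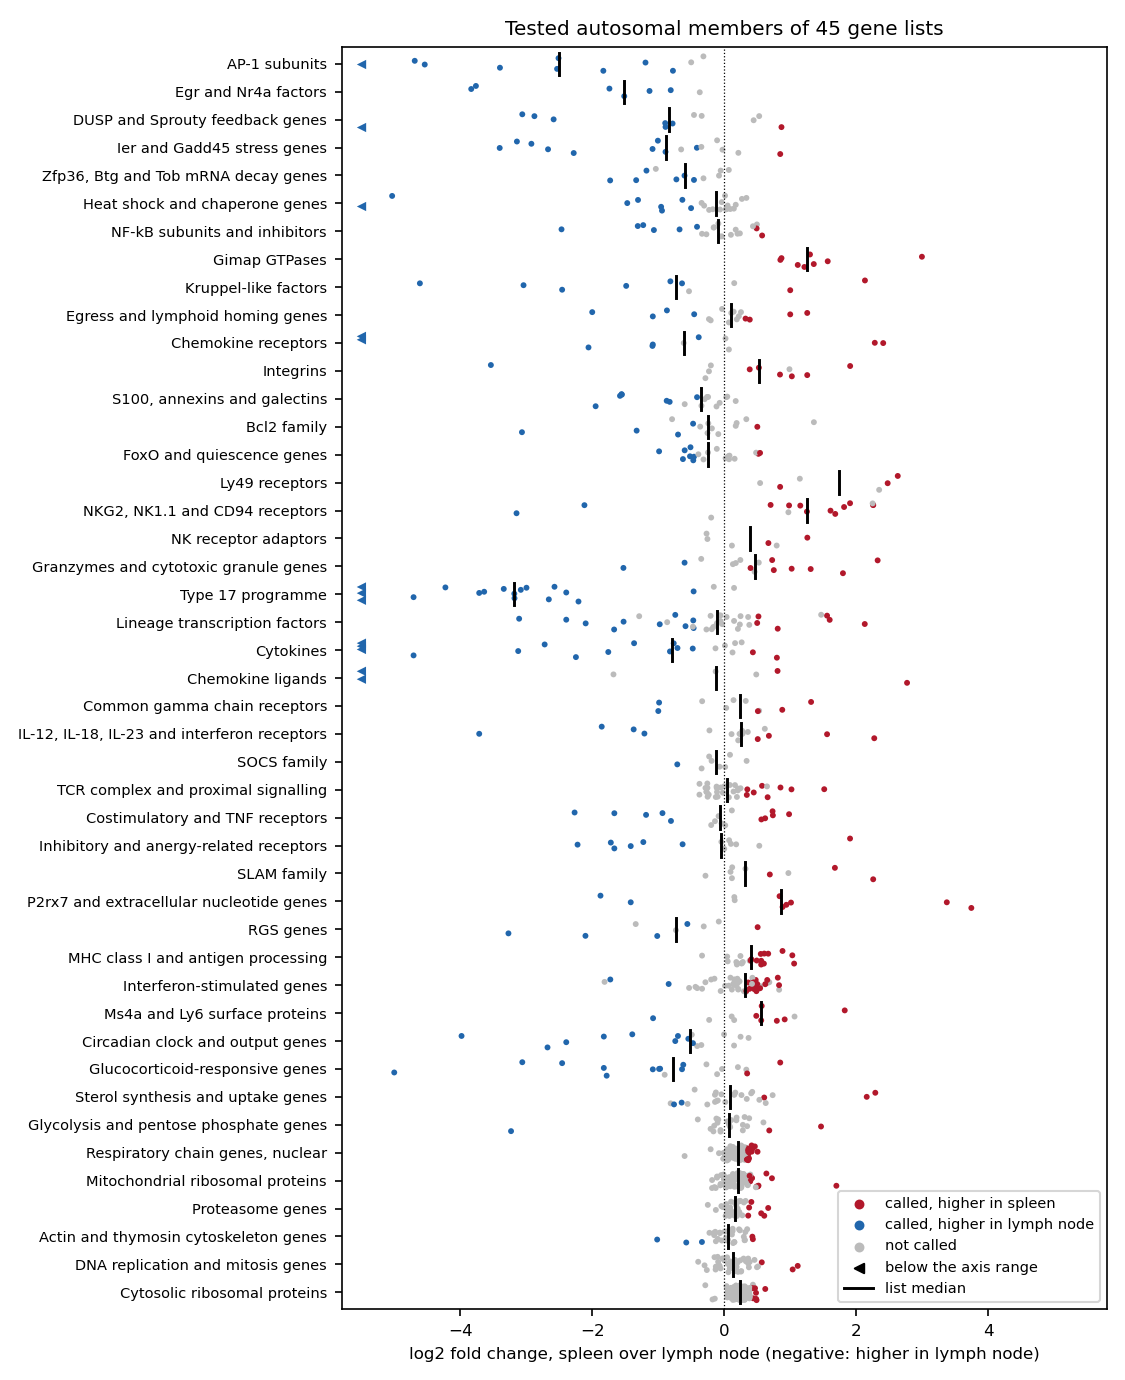
Log2FC of spleen over lymph node for every tested member of 45 gene lists, 1 row per list, with coloured points for called members a black bar at each list's median, and triangles for members beyond the axis range. Type 17, AP-1, and Egr and Nr4a lists have medians of -3.18, -2.51 and -1.52, the Gimap list one of 1.26, and the mitochondrial and proteasome lists cluster just above 0.

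Medians in iNKT1-marker cells were set beside those in all cells for each list except the cytosolic ribosomal proteins. Fewer members were tested in the gate for DUSP and Sprouty genes (11 against 12) and clock genes (13 against 15), and 53 against 52 for interferon-stimulated genes, so those medians cover slightly different members. The median of AP-1 subunits went from -2.51 to -1.94, of Egr and Nr4a factors from -1.52 to -1.62 and of DUSP and Sprouty genes from -0.84 to -1.10. The Krüppel-like factors stayed at -0.73 and -0.74, and glucocorticoid-responsive genes moved from -0.77 to -0.66. By contrast, the medians of MHC class I genes went from 0.41 to 0.14, of interferon-stimulated genes from 0.31 to 0.06, of clock genes, without the gate gene among them, from -0.49 to -0.15 and of integrins from 0.52 to 0.02. In iNKT1-marker cells 3 of 75 respiratory chain genes, 4 of 77 mitochondrial ribosomal protein genes and 2 of 37 proteasome genes were higher in spleen and none in lymph node. There, of 40 replication and mitosis genes and of 36 actin and thymosin genes, 2 each were higher in lymph node and none in spleen. Of all genes tested in the gate, 2.76% were higher in spleen and 5.42% in lymph node. The lymph node counts of the replication and actin lists are near the latter share. The gate holds 4539 of 5384 spleen cells and 2072 of 5486 lymph node cells, so that calls in it rest on fewer UMIs, above all in lymph node. How much of each difference in all cells goes with the subset markers was not tested beyond these values.

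**Figure D5:**
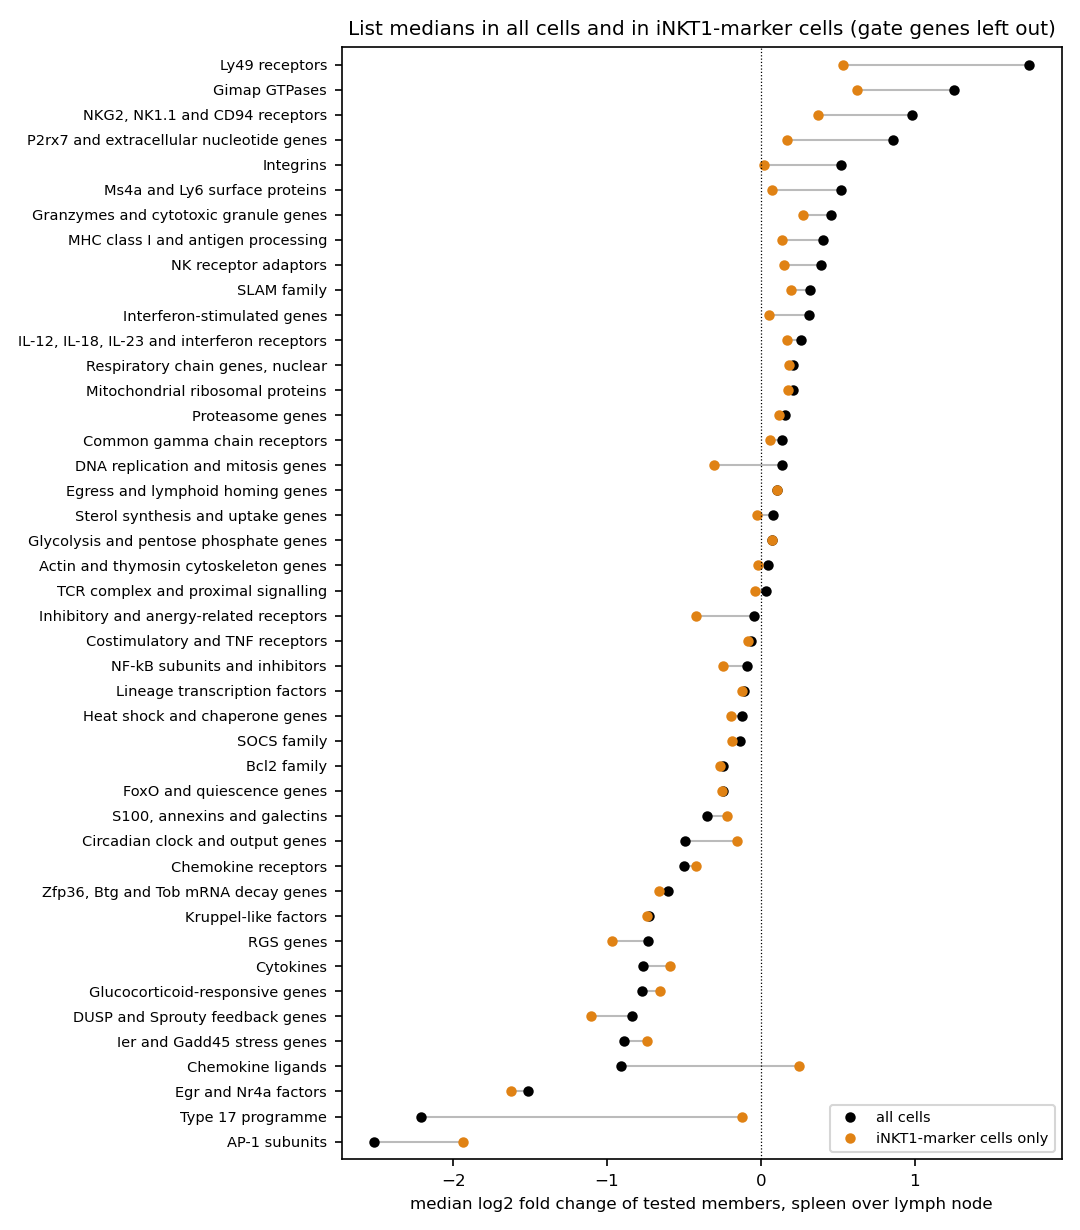
Median log2FC of each of 44 gene lists in all cells (black) and in iNKT1-marker cells (orange), 1 row per list, with the genes that draw the gate left out of both. The points of the AP-1, Egr and Nr4a and Krüppel-like lists lie close together or far from 0 in both, and those of the MHC class I and interferon lists move toward 0 in the gate.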

How the data were processed

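Libraries were of the 10x Genomics Chromium 3′ v2 kind, and the authors aligned them to mm10 and counted UMIs in Cell Ranger 3.1.0. The deposited matrices hold raw UMI counts per gene and barcode. Beside them, other deposited tables give barcodes and gene names, without measurements. The annotation version behind the matrices is not given in the sources used here. Nuclear RNA is the molecule the labels give, and this was left as it stands. Of 27998 gene identifiers, 27645 (98.7%) were placed on chromosomes with GENCODE vM21 (GRCm38, also called mm10), and chromosomes 1 to 19 were kept for the text.

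Barcodes with 300 to 4000 genes and at most 15% mitochondrial UMIs were kept (10870 of 10910 in spleen and lymph node). No doublets were removed in the main setting, and an alternative left out the 2% of cells with the highest Scrublet scores. Ribosomal protein genes, their copies, ribosomal RNA and haemoglobin genes (114 genes, 23.8% to 29.1% of the UMIs in these 4 libraries) were left out. UMIs were summed per library, which is the replicate. edgeR 4.0.16 (R 4.3.3) was run with TMM scaling, its expression filter at a count of 10 and the quasi-likelihood test, with all 6 libraries in 1 fit and the contrast of spleen with lymph node, so that liver adds to the estimate of spread. Benjamini-Hochberg adjustment covered all genes tested, and genes were called at 0.05. SE was taken from the fold change and its F statistic. The fitting step was first tested on simulated counts. Intervals (95%, exact) and floors (3 UMIs) cover counting error only.

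The 45 lists and the members were chosen with earlier results of these data known. Genes were named by a rule: the 10 largest folds in each direction at 20 CPM or more, up to 3 called members per list and direction at 10 CPM or more, and members whose role defines a list. Some of the last were picked after their values had been seen. A few list members are not reported here by name. Lists were described by counts and medians, not tested as sets. Promoter sequences came from RefSeq (GRCm38.p6), matched by symbol. Alternatives were DESeq2 1.42.0, no filter, 4 libraries in place of 6, a replicate block, each library left out, ribosomal genes kept, thinning to 1 total, removal of likely doublets, and 2 gates on marker UMIs.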

Additional observations from a re-analysis of the deposited data

How the results depend on the processing

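With 2 libraries per organ, leaving out 1 leaves a lone library that is assumed to vary like the others. Over these 4 settings the autosomal genes called ranged from 969 to 1436 (main 1795), those higher in spleen from 330 to 596 (main 772) and those higher in lymph node from 639 to 840 (main 1023). The lowest of each came without lymph node replicate 2, where 34.1% of calls were higher in spleen against 43.0% in the main setting. DESeq2 called 1092 (427 and 665). Cells under 2 iNKT17 marker UMIs gave 1130, with 402 higher in spleen, and iNKT1-marker cells gave 783 (264 and 519). Called list members went from 323 to 182 in iNKT1-marker cells. The cause of these shifts was not tested, although the gates hold fewer cells. The other settings called 1766 to 2060.

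Cytosolic ribosomal proteins higher in spleen numbered 7 in the main setting, 11 with DESeq2, 16 with a replicate block and 1 to 43 with a library left out. The replicate block called 2060 autosomal genes against 1795 without it. Under the block Xcl1 was no longer called (adjusted p = 0.059), so that chemokine ligands higher in spleen went from 2 to 1. Replicate numbers share only a number here. The correlation of deviations between same-numbered libraries was 0.068 for spleen with lymph node, 0.0857 for spleen with liver and 0.0832 for lymph node with liver.

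In some lists the calls higher in spleen became fewer than those in lymph node within the gates. Shares over all genes in iNKT1-marker cells, 2.76% higher in spleen and 5.42% in lymph node, lay the same way. In cells under 2 iNKT17 marker UMIs 35.6% of all calls were higher in spleen. Whether these lists differ from all genes in the gates was not tested. In cells under 2 iNKT17 marker UMIs and in iNKT1-marker cells, members higher in spleen numbered 4 and 2 for the antigen receptor list, 2 and 3 for interferon-stimulated genes, 1 and 1 for Ms4a and Ly6 genes, and 0 and 0 for replication genes, in each case fewer than in lymph node. With a library left out, replication genes higher in spleen numbered 1 to 8, and 2 were higher in lymph node without spleen replicate 2. Among named genes 100 of the 159 tested in the main table kept their call in every setting that gave them a value. In iNKT1-marker cells the log2FC changed sign for Bcl2 (-0.18), Bik (0.047), Klra3 (-0.14), Il2ra (0.057), Tnfrsf9 (-0.19), Rgs3 (-0.035) and Ly6c1 (-0.10). Depth limits genes near 3 UMIs per organ, for which ratios have wide intervals.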
